A study of Mus musculus with 42 samples.

Results

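Proximal colon crypts of *Mtg16-/-* mice were compared with those of wild-type (WT) littermates at baseline. The comparison rests on the columns that the table for this pair of groups holds for single libraries, which come to 4 of the 42 RNA-seq libraries of the series, spread there over 14 conditions. There were 2 *Mtg16-/-* and 2 WT libraries. The mice were untreated, at least 8 weeks old, on a background given as C57/BL6 and bred from heterozygous pairs. Epithelium was freed with EDTA and collected as crypts, from the colon segment within 5 cm of the cecum, so each library mixes the cell types of the crypt, and fewer cells of a type cannot be told apart from less RNA per cell. All 4 libraries carry the number 4149 in their labels, which do not say what it stands for. The allele is carried by every cell of the mouse, and how many animals stood behind a library is not given in the labels, so that the p-values below measure only the spread between these libraries.

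MTG16, encoded by *Cbfa2t3*, is a transcriptional corepressor that binds E proteins, the partners of the basic helix-loop-helix factors that choose the fate of secretory cells. ATOH1 starts the secretory lineage of the crypt, SPDEF and GFI1 favour goblet cells, and NEUROG3 with its targets NEUROD1 and PAX4 makes enteroendocrine cells, which store hormones in regulated granules. The proximal colon has a mucus layer and a set of transporters and crypt-base secretory cells that differ from those of the distal colon.

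The targeted gene was read in every library. *Cbfa2t3* had 1634 and 3221 normalized counts in the WT libraries and 631 and 1057 in the *Mtg16-/-* libraries, a log2 fold change of -1.49 ± 0.36 (SE, n = 2 per genotype) that did not pass limma (adjusted p = 0.445) and passed DESeq2 (adjusted p = 0.00144, and 0.104 without *Mtg16-/-* replicate 1, whose cell mix is described below). The groups did not overlap, but the transcript was not lost, and the labels do not say which exons the allele lacks, so this value checks the genotype only in part. Within 10 Mb of the gene on chromosome 8, 115 other genes were tested, of which 0 passed limma and 3 passed DESeq2 (0.947% of all genes), with 8.7% at an unadjusted p under 0.05 against 5.96% of all genes.

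Depth ranged from 43282428 to 54457713 reads assigned to genes. The labelled tissue was checked against defining markers, and the 13 colon epithelial markers listed summed to between 1768112 and 2153620 normalized counts. *Xist*, transcribed from the inactive X chromosome of females, was high in all 4 libraries, at 33050 and 17440 in WT and 33300 and 15890 in *Mtg16-/-*. Libraries stood apart in other cell types. *Mtg16-/-* replicate 1 had 3825 normalized counts over 8 smooth muscle markers, led by *Tagln* at 981 and *Acta2* at 748, where the other 3 libraries had 62.9 to 101, and none of the 8 was at 0 in all libraries. Its fibroblast markers summed to 2457 against 1325 to 1906 in the others. Plasma and B cell markers summed to 575 and 1533 in WT and 2229 and 2607 in *Mtg16-/-*, mostly *Jchain*, the joining chain of secreted antibodies, with all 8 tested members higher in *Mtg16-/-* and 5 of them not overlapping above WT, as in 17.5% of all genes. Markers of enteric nerves and glia summed to 172 and 204 in WT and 357 and 489 in *Mtg16-/-*, mostly *Ret*, a receptor tyrosine kinase (138 and 173 against 292 and 433), with *S100b* at 0 in 3 libraries. Values without *Mtg16-/-* replicate 1 stand beside many of the lists that follow.

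A library outside this comparison also went against its label. Genes that differed by at least 3 on the log2 scale between WT distal and proximal colon of another colony (315 higher in proximal, 106 higher in distal) separated the segments cleanly. The 315 proximal genes had a median log2 level of 7.32 to 7.60 in the 4 libraries here and of 2.16 to 3.19 in 7 of the 8 distal libraries of this colony, but of 7.13 in the library labelled distal *Mtg16-/-* replicate 2. The 106 distal genes had a median of 4.88 to 5.67 here, 9.58 to 10.01 in those 7 and 5.82 in that library. Distal effects below are therefore given with and without it. It and distal WT replicate 2 were the 2 distal libraries with Y-linked transcripts (7448 and 6797 normalized counts) and hardly any *Xist*, so that leaving it out alone leaves such a library in WT only. Calls were therefore also read in the 6 distal libraries with high *Xist*, 3 of each genotype.

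Of 13944 genes with a mean of at least 10 normalized counts, 9 passed limma at an adjusted p of 0.05 (0.0645%), of which 5 were higher (0.0359%) and 4 lower (0.0287%) in *Mtg16-/-* crypts. At an unadjusted p under 0.05 there were 831 (5.96%), with 385 higher (2.76%) and 446 lower (3.2%). DESeq2, run on the reads behind the normalized counts, called 132 (0.947%), 48 higher (0.344%) and 84 lower (0.602%), among them all 9. The libraries of the genotypes did not overlap in 4961 genes (35.6%), the 132 included. The limma count was 6 without *Mtg16-/-* replicate 1, 8 without replicate 2, 15 without WT replicate 1 and 22 without WT replicate 2, and 0 in a limma fit without the trend of the spread with level (838 at an unadjusted p under 0.05). Without *Mtg16-/-* replicate 1 DESeq2 called 70 (0.504%), of which 53 were among the 132. An exact permutation test of 2 against 2 libraries cannot go below p = 0.333, so single genes rest on the fits across all genes. In the text below, rose and fell are kept for the 9 genes.

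To show the starting sequence of genes with large changes among the 9, 250 bases upstream of the annotated start are printed for 4 of them, 5′ to 3′ on the strand of the gene (RefSeq, GRCm38.p6). Capitals mark the E box CANNTG, the letters that E protein dimers bind. The motif is its own reverse complement, so one strand covers both. *Sval1* (chr6:41951378-41951627, plus strand) and *Ces1c* (chr8:93131284-93131533, minus strand) rose, and *Ceacam12* (chr7:18065679-18065928, plus strand) and *Nxpe2* (chr9:48340899-48341148, minus strand) fell.
Sval1: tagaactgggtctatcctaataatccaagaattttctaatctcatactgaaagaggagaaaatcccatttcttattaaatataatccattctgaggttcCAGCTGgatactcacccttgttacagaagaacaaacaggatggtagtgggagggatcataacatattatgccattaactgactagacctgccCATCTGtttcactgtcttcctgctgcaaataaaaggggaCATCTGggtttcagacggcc
Ces1c: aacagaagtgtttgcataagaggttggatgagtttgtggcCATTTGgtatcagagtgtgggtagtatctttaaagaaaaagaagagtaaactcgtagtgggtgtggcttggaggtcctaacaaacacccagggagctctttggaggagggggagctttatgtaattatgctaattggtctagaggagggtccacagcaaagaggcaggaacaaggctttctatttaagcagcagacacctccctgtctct
Ceacam12: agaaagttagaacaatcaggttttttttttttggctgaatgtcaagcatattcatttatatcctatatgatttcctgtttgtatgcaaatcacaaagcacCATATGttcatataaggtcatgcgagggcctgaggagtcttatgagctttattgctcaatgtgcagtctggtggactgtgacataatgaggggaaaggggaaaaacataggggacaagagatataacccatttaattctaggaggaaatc
Nxpe2: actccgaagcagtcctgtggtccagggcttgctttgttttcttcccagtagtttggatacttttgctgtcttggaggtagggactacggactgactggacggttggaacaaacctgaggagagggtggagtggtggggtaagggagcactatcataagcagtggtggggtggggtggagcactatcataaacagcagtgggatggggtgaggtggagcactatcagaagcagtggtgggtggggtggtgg
The RefSeq start used for *Nxpe2* lies inside the gene as GENCODE draws it (chr9, 48318006 to 48353454), so its window is not upstream of the whole gene model. The *Sval1* window holds 3 E boxes, those of *Ces1c* and *Ceacam12* hold 1 each and that of *Nxpe2* holds 0. Windows were at hand for 7 of the 9 genes, 5 of which hold the motif, as do 66.2% of 32851 windows of the same length, so the motif is common and these matches are a description only.

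*Ces1c*, which encodes a secreted carboxylesterase (chr8, 93099015 to 93131283, GRCm38), showed the greatest rise of the 9. It had 13.7 and 10.3 normalized counts in WT and 437 and 396 in *Mtg16-/-*, a log2 fold change of 5.01 ± 0.34 (limma, adjusted p = 0.0100). The value of 437 belongs to replicate 1, the library with much smooth muscle RNA, and 396 to replicate 2. The part of smooth muscle RNA in the *Ces1c* change was not tested. None of the other 11 members tested of the carboxylesterase family passed limma or DESeq2, and the median of the 12 was -0.03 (-0.12 without *Mtg16-/-* replicate 1) beside 0.003 over all genes. The neighbouring *Ces1b* stood at 30.9 and 7.24 in WT and 50.3 and 46.9 in *Mtg16-/-*.

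*Sval1*, seminal vesicle antigen-like 1, a small secreted protein counted here among goblet products (chr6, 41951630 to 41956098), had 187 and 266 in WT and 4342 and 3060 in *Mtg16-/-* crypts. It rose by 4.03 ± 0.24 on the log2 scale, 16.3-fold (limma, adjusted p = 0.0100). *Dmpk*, the kinase whose repeat expansion causes myotonic dystrophy (chr7, 19083849 to 19093821), had 275 and 208 in WT and 1426 and 1513 in *Mtg16-/-*, a change of 2.62 ± 0.19 (limma, adjusted p = 0.0100). The value of 1426 belongs to replicate 1, in which the 8 smooth muscle markers summed to 3825, and 1513 to replicate 2, in which they summed to 62.9. The part of smooth muscle RNA in the *Dmpk* change was not tested.

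*Tff3*, the trefoil peptide that goblet cells secrete with mucin (chr17, 31125306 to 31129646), had 18340 and 22520 in WT and 69250 and 58840 in *Mtg16-/-*. It rose by 1.65 ± 0.17 on the log2 scale (limma, adjusted p = 0.0453). The remaining gene that rose, *Rps6-ps4*, is a processed pseudogene of a ribosomal protein gene and went from 1984 and 2166 to 6435 and 5855. It shares sequence with *Rps6*, so reads can be split between them and its value is uncertain.

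Of the genes that fell, *Nxpe2*, of the neurexophilin and PC-esterase family (chr9, 48318006 to 48353454), changed most. It had 1912 and 1213 in WT and 49.2 and 81.8 in *Mtg16-/-*, a log2 fold change of -4.56 ± 0.33 (limma, adjusted p = 0.0100). *Ceacam12*, a carcinoembryonic antigen-related adhesion molecule (chr7, 18065929 to 18077986), had 1670 and 1483 in WT and 211 and 164 in *Mtg16-/-*, a change of -3.07 ± 0.19 (limma, adjusted p = 0.0100). Neither gene came near overlapping between genotypes.

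*Plxnd1*, a plexin receptor for semaphorins (chr6, 115954811 to 115995005), had 570 and 503 in WT and 91.7 and 104 in *Mtg16-/-*, 5.45-fold lower (limma, adjusted p = 0.0291). *Reg4*, a C-type lectin of secretory cells at the crypt base (chr3, 98222156 to 98236748), had 18860 and 16340 in WT and 5534 and 6046 in *Mtg16-/-*, a change of -1.60 ± 0.12 (limma, adjusted p = 0.0114). *Reg4* and *Tff3*, both secretory products, thus moved in opposite directions in the same libraries. Without *Mtg16-/-* replicate 1, *Sval1*, *Ceacam12* and *Nxpe2* kept their limma call, whereas the other 6 had adjusted p-values of 0.0652 to 0.203 in a fit that assumes the lone library to vary like the WT pair.

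**Figure D1:**
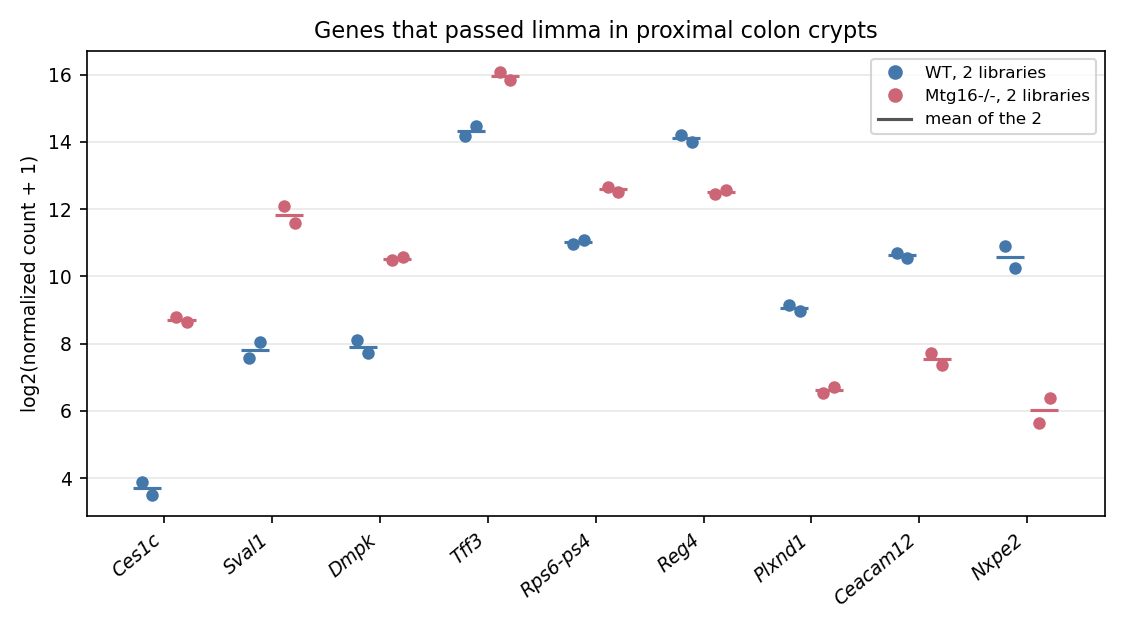
Levels of the 9 genes that passed limma, ordered by log2 fold change, on a log2(normalized count + 1) axis, with 1 point per library (2 WT, 2 *Mtg16-/-*) and a bar at the mean of the 2. In each gene both *Mtg16-/-* points lie on 1 side of both WT points, from *Ces1c* (13.7 and 10.3 against 437 and 396) to *Nxpe2* (1912 and 1213 against 49.2 and 81.8).

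Below the limma threshold, several genes with large changes had libraries that did not overlap. *Mmp7*, the matrilysin that activates Paneth cell defensins, had 433 and 1225 in WT and 86.1 and 82.8 in *Mtg16-/-* (limma, adjusted p = 0.154; DESeq2, 8.05e-11). *Muc1*, a membrane mucin, had 707 and 1095 in WT and 214 and 141 in *Mtg16-/-*. *Scnn1b*, the beta subunit of the epithelial sodium channel, had 677 and 741 in WT and 199 and 115 in *Mtg16-/-* (limma, adjusted p = 0.104; DESeq2, 8.24e-10).

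These 3 genes passed DESeq2 but not limma. *Gbp2b*, an interferon-inducible guanylate-binding protein, had 1419 and 1519 in WT and 12.3 and 0 in *Mtg16-/-*, the greatest fold of all genes tested. In the distal table of the colony it also switched between libraries of the same genotype, at 4908, 3.47, 2118 and 2698 in WT and 5944, 1261, 3.79 and 4.09 in *Mtg16-/-*. Another pair of genes with large folds, *Hmga1b* and *LOC102638448*, have near-identical copies and are uncertain.

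The enteroendocrine lists had higher medians in *Mtg16-/-* crypts, with few members called. Over 20 transcription factors of that lineage the median log2 fold change was 0.49, with 17 higher and 13 with both *Mtg16-/-* libraries above both WT libraries, against a median of 0.003 and 17.5% of all genes so placed. None passed limma and 1 passed DESeq2 as higher (0.344% of all genes). That gene was *Neurog3*, the factor that commits a cell to the lineage, with 61.0 and 50.7 in WT and 123 and 225 in *Mtg16-/-*, a log2 fold change of 1.56 ± 0.38 (limma, adjusted p = 0.454; DESeq2, 0.0362).

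*Neurod1*, next in the cascade, had 204 and 165 in WT and 224 and 252 in *Mtg16-/-*. *Pax4* had 23.2 and 14.5 in WT and 26.8 and 48.9 in *Mtg16-/-*. Neither gene overlapped between genotypes, and neither passed limma or DESeq2. The *Mtg16-/-* libraries were unequal, as *Neurog3*, *Insm1* (308 and 599) and *Pax4* were higher in replicate 2 than in replicate 1. Leaving out single libraries moved the median of the list between 0.35 (without *Mtg16-/-* replicate 2) and 0.74 (without *Mtg16-/-* replicate 1). In the latter case 18 of 20 were higher and 0 were called, with *Neurog3* at an adjusted p of 0.155 by DESeq2.

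Among 24 hormones and granule proteins, 21 were tested, with a median of 0.74, 19 higher and 13 not overlapping above WT (17.5% of all genes). None passed limma and 5 passed DESeq2, all higher, against 0.344% of all genes. *Pyy*, peptide YY of L cells, had 1092 and 918 in WT and 1738 and 2263 in *Mtg16-/-*, a change of 0.99 ± 0.17 (limma, adjusted p = 0.227; DESeq2, 0.000373). *Gcg*, which encodes proglucagon and so GLP-1, had 3380 and 3241 against 4543 and 5896.

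*Sst*, the somatostatin of D cells, had 523 and 552 in WT and 949 and 976 in *Mtg16-/-*. *Cpe*, the carboxypeptidase that trims prohormones, had 400 and 403 against 762 and 975. *Ghrl*, which encodes ghrelin, stood at 19.8 and 12.4 against 73.8 and 78.8, and is the remaining gene of the 5 called by DESeq2. *Tph1*, the serotonin-making hydroxylase of enterochromaffin cells, at 1354 and 914 against 1725 and 2458, did not overlap and missed both thresholds.

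The 2 members below WT were *Pcsk1*, the convertase that cleaves proglucagon and other prohormones, at 2530 and 1801 against 1448 and 1336, and *Sct*, secretin, at 1620 and 1472 against 1390 and 1473. *Pcsk1* did not follow the hormones it processes. The median of the list was 0.99 without *Mtg16-/-* replicate 1 and 0.45 without replicate 2. Without replicate 1, 6 members were called higher by DESeq2 (0.238% of all genes in that fit). *Pyy*, *Gcg* and *Cpe* stayed among them, *Sst* (adjusted p = 0.487, DESeq2) and *Ghrl* (1.00) did not, and *Tph1*, *Chga* and *Chgb*, the latter pair being granins of secretory granules, were added.

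The exocytosis list, which holds vesicle, channel and receptor genes of neuroendocrine cells, had a median of 0.60 over the 23 members tested, with 18 higher, 15 not overlapping above WT (17.5% of all genes) and 5 called higher by DESeq2 (0.344% of all genes). *Kcnh6*, a potassium channel, had 64.4 and 51.7 in WT and 224 and 216 in *Mtg16-/-*, a change of 1.91 ± 0.29 (limma, adjusted p = 0.154; DESeq2, 3.34e-05). *Insrr*, the insulin receptor-related receptor that senses alkaline pH, had 490 and 479 against 1048 and 1308.

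*Rimbp2* and *Syt13*, proteins of the release site and the vesicle, were also called by DESeq2, as were *Kcnh6* and *Insrr*. *Rimbp2* had 168 and 115 in WT and 399 and 479 in *Mtg16-/-*, and *Syt13* had 97.0 and 97.2 against 238 and 321. *Cacna1h*, a T-type calcium channel, was lower, at 1215 and 787 against 428 and 678. None of the 23 passed limma. The enteric nerve and glia markers named above were higher in the same libraries, and their part in these values was not tested. Leaving out single libraries gave medians from 0.34 (without WT replicate 2) to 0.80 (without WT replicate 1). Without *Mtg16-/-* replicate 1, *Kcnh6* and *Syt13* were no longer called by DESeq2.

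The goblet lists held members in both directions. In the larger goblet set that the study took from the literature, 385 genes were tested with a median of -0.14. Both *Mtg16-/-* libraries lay below both WT libraries in 167 and above in 27 (18.1% and 17.5% of all genes lie so), and DESeq2 called 16 lower and 3 higher (0.602% and 0.344% of all genes). Without *Mtg16-/-* replicate 1 the median was -0.13, and most of the lower calls were lost. Of 15 goblet and secretory transcription factors 8 had both *Mtg16-/-* libraries below both WT libraries, against 18.1% of all genes, and 1 above, with a median of -0.07 that ranged from -0.16 without WT replicate 2 to -0.06 without *Mtg16-/-* replicate 1. *Atoh1*, which starts the secretory lineage, had 4528 and 5194 in WT and 2417 and 2402 in *Mtg16-/-*, a change of -1.01 ± 0.12 (limma, adjusted p = 0.0774; DESeq2, 1.81e-08). *Spdef*, which drives goblet maturation, had 8955 and 8138 against 4434 and 5829, a call that was lost without *Mtg16-/-* replicate 1 (DESeq2, adjusted p = 0.828).

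*Gfi1*, a repressor of enteroendocrine genes in goblet precursors, had 834 and 711 in WT and 603 and 492 in *Mtg16-/-*, without a call. *Klf4*, *Foxa3*, *Cdx2* and *Hnf4a*, other transcription factors of the epithelium, had log2 fold changes between -0.07 and 0.22.

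Among goblet secreted products 18 of 23 were tested, with 8 higher and 10 lower. The median was -0.38 but its sign rested on single libraries, at 0.13 without WT replicate 1, -0.71 without WT replicate 2 and -0.16 without *Mtg16-/-* replicate 1. *Sval1* and *Tff3* rose and *Reg4* fell, as described. Members tested of the larger goblet set of the study had log2 fold changes from -1.49 to 1.65. *Sval1* (4.03) and *Reg4* (-1.60) lie outside that range, so they are not among those members. *Fcgbp*, the IgG Fc-binding protein cross-linked into mucus, had 131800 and 146100 in WT and 293500 and 404000 in *Mtg16-/-*, a change of 1.31 ± 0.26 that passed DESeq2 (8.24e-10) and not limma (adjusted p = 0.293).

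The chemokines *Ccl6*, at 24820 and 19930 against 12030 and 11010, and *Ccl9*, at 1881 and 1549 against 977 and 1075, were lower and passed DESeq2, *Ccl9* not without *Mtg16-/-* replicate 1 (adjusted p = 0.86). *Clca1*, *Agr2* and *Zg16*, secreted or folding factors of goblet cells, were called by neither test, and *Clca1* had 116200 and 57000 in WT and 50150 and 67950 in *Mtg16-/-*. *Ang4*, an antimicrobial ribonuclease, varied widely between WT libraries, at 9265 and 317. *Muc2* was not analysed here.

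The enzymes that fold and glycosylate mucin were lower more often than higher. Of 24 tested, 19 had lower means and 12 did not overlap below WT (18.1% of all genes), with none called by limma and 1 lower by DESeq2 (0.602% of all genes). The median was -0.28, and -0.16 without *Mtg16-/-* replicate 1. *B3gnt6*, the core 3 synthase of mucin O-glycans, had 2428 and 3123 in WT and 405 and 869 in *Mtg16-/-*, a change of -2.21 ± 0.34 (limma, adjusted p = 0.164; DESeq2, 2.68e-08). The rest were small, as for *Galnt7*, which starts O-glycans, at -0.41, and *C1galt1*, the core 1 synthase, at -0.42.

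**Figure D2:**
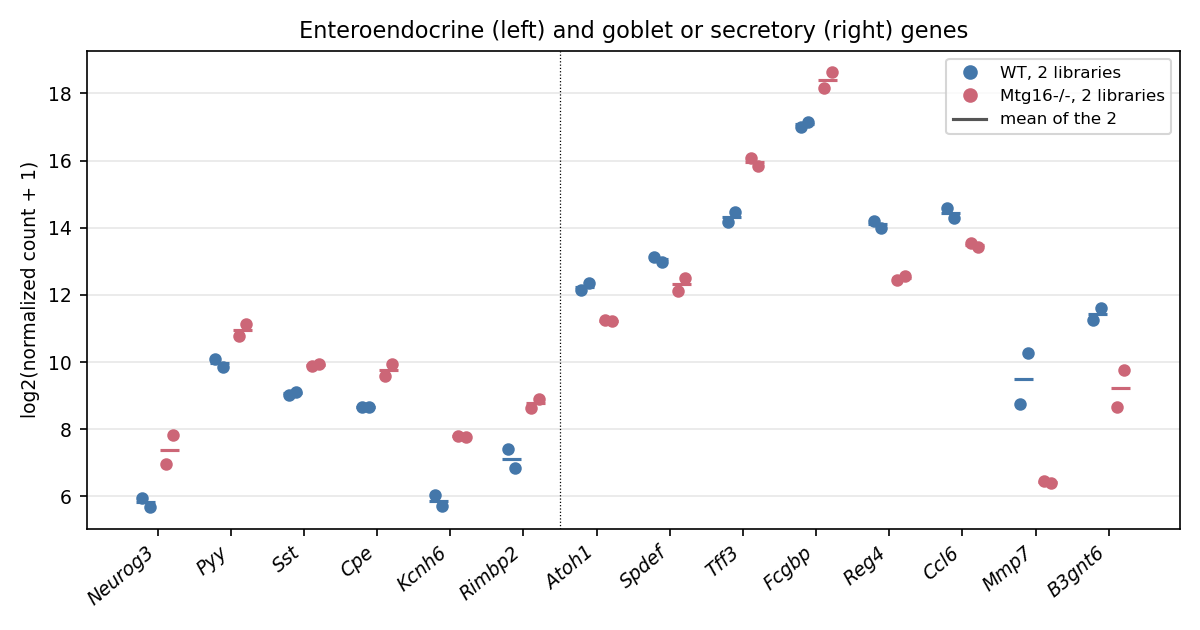
Levels of 6 enteroendocrine genes (left of the dotted line) and 8 goblet or secretory genes (right) on a log2(normalized count + 1) axis, with 1 point per library and a bar at the mean of the 2 libraries of a genotype. The left genes lie higher in *Mtg16-/-*, as for *Neurog3* (123 and 225 against 61.0 and 50.7), whereas the right genes divide, with *Tff3* and *Fcgbp* higher and the others lower.

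Other crypt cell types gave less. Of the absorptive transport list, *Scnn1b* alone was called lower by DESeq2 of 28 tested (0.602% of all genes) and 9 did not overlap below WT (18.1%), with a median of -0.16 that was 0.04 without *Mtg16-/-* replicate 1, and *Slc26a3*, the chloride exchanger of colonocytes, had 18870 and 29980 in WT and 13430 and 17830 in *Mtg16-/-*. In the lipid and bile acid list, with a median of -0.03, 1 of 30 was called by DESeq2 (0.947% of all genes), *Fabp6*, the bile acid-binding protein, at 186 and 176 against 401 and 407 (DESeq2, adjusted p = 0.000983, and 0.54 without *Mtg16-/-* replicate 1, when the list median was 0.08). The tuft cell list had 17 of 21 higher but only 2 not overlapping above WT, against 17.5% of all genes. Its median of 0.26 ranged from -0.12 without WT replicate 2 to 0.64 without *Mtg16-/-* replicate 1. Its 1 call by DESeq2 was a lower gene (0.602% of all genes), *Cd24a*, a surface glycoprotein, and was lost without *Mtg16-/-* replicate 1. *Cd24a* had 27480 and 24160 in WT and 16140 and 18710 in *Mtg16-/-* (DESeq2, adjusted p = 0.0266). The marker *Dclk1* had 802 and 435 against 540 and 901, so its WT libraries spanned most of the range.

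Notch genes, which restrain secretory fate, had a median of 0.16 over 23 tested (0.20 without *Mtg16-/-* replicate 1), with 11 not overlapping above WT (17.5% of all genes). *Notch1*, a receptor, had 1585 and 1982 in WT and 2695 and 2788 in *Mtg16-/-* (limma, adjusted p = 0.402; DESeq2, 0.0459, and 0.842 without *Mtg16-/-* replicate 1). The ligand *Dll1* had 440 and 687 against 819 and 1095, whereas the Notch target *Hes1* had 3705 and 3024 against 2663 and 4535. Stem cell genes (median 0.05 over 18), Wnt pathway genes (0.16 over 21) and replication genes (0.10 over 26) had 0 calls by limma and DESeq2. Without *Mtg16-/-* replicate 1 these medians were 0.22, 0.18 and -0.05, and without replicate 2 they were -0.09, 0.04 and 0.26. *Lgr5*, the receptor of crypt-base stem cells, had 300 and 457 against 292 and 432.

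Genes of the MTG family and its partners had a median of 0.12, or 0.18 without *Mtg16-/-* replicate 1. *Tcf3*, *Tcf4* and *Tcf12*, which encode the E proteins, had log2 fold changes of 0.12, 0.11 and 0.001. *Id4*, an inhibitor of helix-loop-helix dimers, had 222 and 316 in WT and 419 and 840 in *Mtg16-/-*, and *Runx1t1*, another member of the MTG family, had 9.45 and 13.4 against 34.7 and 44.9. Neither passed limma or DESeq2 with all libraries, and *Id4* passed DESeq2 without *Mtg16-/-* replicate 1 (adjusted p = 0.00377).

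**Figure D3:**
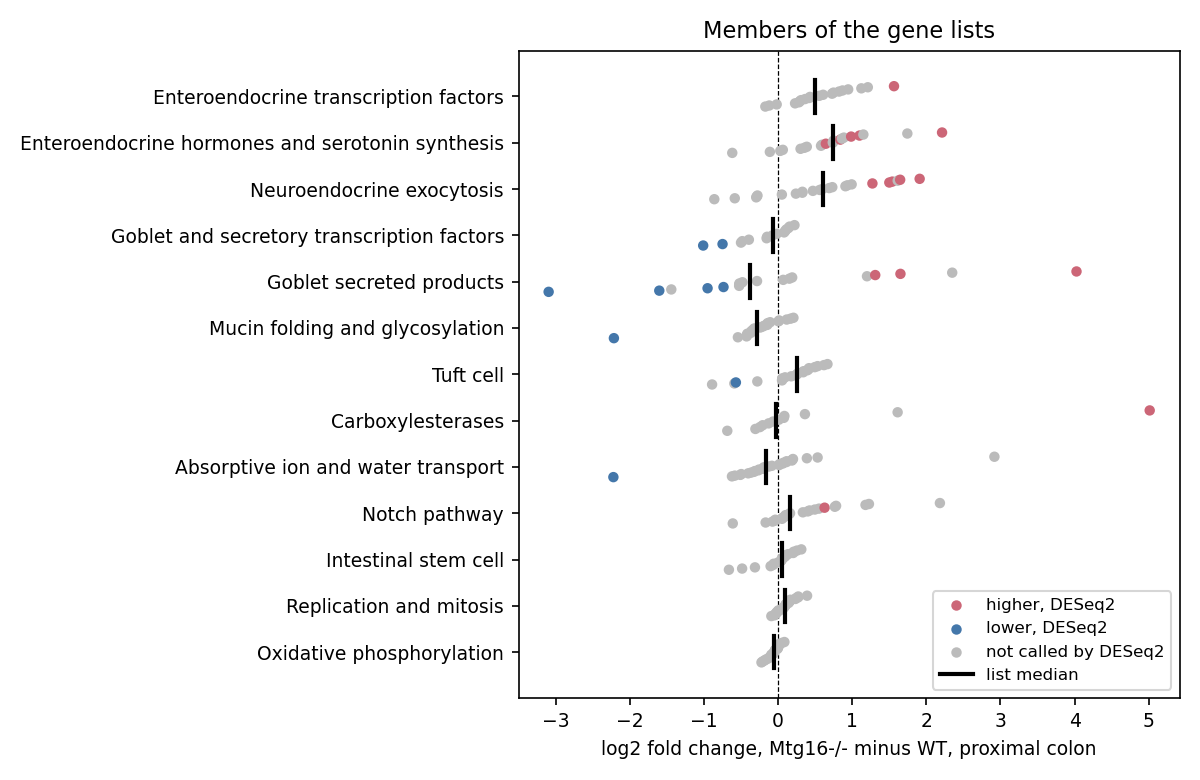
Log2 fold changes (*Mtg16-/-* minus WT, n = 2 per genotype) of the members of 13 gene lists, 1 point per gene and a black bar at the list median. Red and blue points passed DESeq2 as higher and lower. The 3 enteroendocrine lists have medians of 0.49, 0.74 and 0.60, whereas mucin glycosylation lies at -0.28 and the oxidative phosphorylation list at -0.05.

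Many of the genes that DESeq2 called differ along the normal colon. In WT mice of the other colony (3 distal and 2 proximal libraries), 10.5% of the 13944 genes were at least 2-fold higher in proximal than distal colon and 5.4% at least 2-fold higher in distal colon. Of the 84 genes that DESeq2 called lower, 42 (50%) were proximal-high, and of the 48 called higher, 12 (25.0%) were distal-high. The opposite pairings were also above the share of all genes, with 9 of the 84 (10.7%) distal-high and 9 of the 48 (18.8%) proximal-high. At an unadjusted limma p under 0.05, 104 of the 446 lower genes (23.3%) were proximal-high, and of the 385 higher genes 51 (13.2%) were proximal-high and 46 (11.9%) distal-high.

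Single genes did not all follow that order. *Sval1* was 4.78 higher on the log2 scale in WT distal colon and rose, and *Ceacam12* differed by -3.52 there and fell. *Nxpe2* was 2.42 higher in distal colon and fell. The 20 colon position genes tested, most of them *Hox* genes, had 0 calls by limma and DESeq2, with a median of 0.04 (0.09 without *Mtg16-/-* replicate 1), and *Hoxa13* had 217 and 238 in WT and 138 and 281 in *Mtg16-/-*. Over all genes the fold change here and the WT distal minus proximal difference had an r of 0.106, a description across genes.

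The same allele was compared in distal colon crypts (4 *Mtg16-/-* and 4 WT libraries of the colony, 2 of each labelled with the number 5094 and 2 with 4149). There, 33 genes passed limma (0.239%), and 143 (1.04%) without the library that went against its label. The difference of the 2 effects passed limma in 2 genes of 13424 (0.0149%), *Sval1* and *Insrr*, and in 6 of 13298 (0.0451%) without that library. In 1 limma fit of both tables with an interaction term it passed in 0, with *Sval1* at an adjusted p of 0.0986 and *Insrr* at 0.151. The labels do not say whether proximal and distal libraries came from the same mice, but *Xist* in the distal libraries numbered 4149 (35380 and 22680 in WT, 36090 and 18900 in *Mtg16-/-*) had the order seen in the proximal ones. The test treats the 2 effects as independent. With the distal libraries numbered 4149 alone, 2 genes of 13313 passed limma (0.015%), *Sval1* and *Nxpe2*. With the distal libraries high in *Xist*, 7 of 13307 passed (0.0526%).

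*Sval1* had 14560, 15250, 17970 and 18060 in distal WT and 12780, 4518, 15390 and 17350 in distal *Mtg16-/-*, so it was already high there in WT. Its effect was 4.58 ± 0.45 greater on the log2 scale in proximal colon with all libraries (limma, adjusted p = 0.000989) and 4.15 ± 0.27 without the library at 4518 (adjusted p = 0.00022, limma). *Nxpe2* had 10760, 9960, 9359 and 11930 in distal WT and 10850, 284, 7152 and 10520 in distal *Mtg16-/-*, where 284 is again the library that went against its label. With all libraries the distal effect was -1.42 and the difference of proximal from distal effect -3.14 ± 1.11 (limma, adjusted p = 0.999). Without it the distal effect was -0.16 and the difference -4.40 ± 0.36 (limma, adjusted p = 0.00171).

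*Insrr* had 57.7, 56.7, 36.9 and 55.2 in distal WT and 950, 1500, 602 and 998 in distal *Mtg16-/-*, a far lower start than in proximal WT crypts. Its effect was smaller in proximal colon by -2.94 ± 0.33 with all libraries (limma, adjusted p = 0.0026) and by -2.73 ± 0.29 without replicate 2 (limma, adjusted p = 0.000918), but with the distal libraries numbered 4149 alone the difference of -2.80 ± 0.40 did not pass (limma, adjusted p = 0.356). *Myrip*, a linker of vesicles to actin, *Cacna1h* and *Vipr2*, a receptor for vasoactive intestinal peptide, passed only without that library, with differences of -2.51, -2.44 and -2.15 (limma, adjusted p = 0.00341, 0.0346 and 0.0207). All 3 also passed among the libraries with high *Xist*, at -2.50, -2.42 and -2.05 (limma, adjusted p = 0.0167, 0.0341 and 0.0347), as did *Sval1*, *Nxpe2* and *Insrr*. With all libraries the differences of *Myrip*, *Cacna1h* and *Vipr2* were -2.97, -2.53 and -2.54 (limma, adjusted p = 0.171, 0.0528 and 0.171). Levels of all 4 were higher in proximal than in distal WT crypts, as for *Myrip* at 499 and 577 here and 26.0 to 31.8 there, although size factors were set separately in each table.

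Some changes were found in both segments. *Dmpk* passed limma in distal colon (1.76 with all libraries, 1.89 ± 0.18 without replicate 2; limma, adjusted p = 0.0170 and 0.0038). *Ces1c* had a distal change of 2.99 (limma, adjusted p = 0.231) and of 3.49 ± 0.61 without replicate 2 (limma, adjusted p = 0.0360), and *Tff3* of 0.69 and 0.64, the latter passing limma (adjusted p = 0.0445). *Atoh1*, not called by limma here, had a distal change of -0.96 with all libraries (limma, adjusted p = 0.126) and of -1.08 ± 0.18 without replicate 2 (limma, adjusted p = 0.0298). Among the 6 distal libraries with high *Xist*, where 0.597% of all genes passed limma, *Dmpk* passed (limma, adjusted p = 0.0100), whereas *Ces1c*, *Tff3* and *Atoh1* did not (limma, adjusted p = 0.0979, 0.124 and 0.0919).

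The enteroendocrine lists had larger medians in distal than in proximal colon. The factors had a distal median of 1.11 (1.28 without replicate 2) beside 0.49 here, the hormones 1.14 (1.257) beside 0.74, and the exocytosis genes 1.17 (1.18) beside 0.60. Without replicate 2 the distal effect was the greater in 18 of 20 factors, 15 of 20 hormones and 20 of 23 exocytosis genes, of which only *Insrr*, *Myrip* and *Cacna1h* passed the test of the difference. *Neurog3*, for 1, had a distal change of 2.10, or 2.45 ± 0.27 without replicate 2 (limma, adjusted p = 0.00568). Among the libraries with high *Xist* the 3 medians were 1.21, 1.20 and 1.15.

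**Figure D4:**
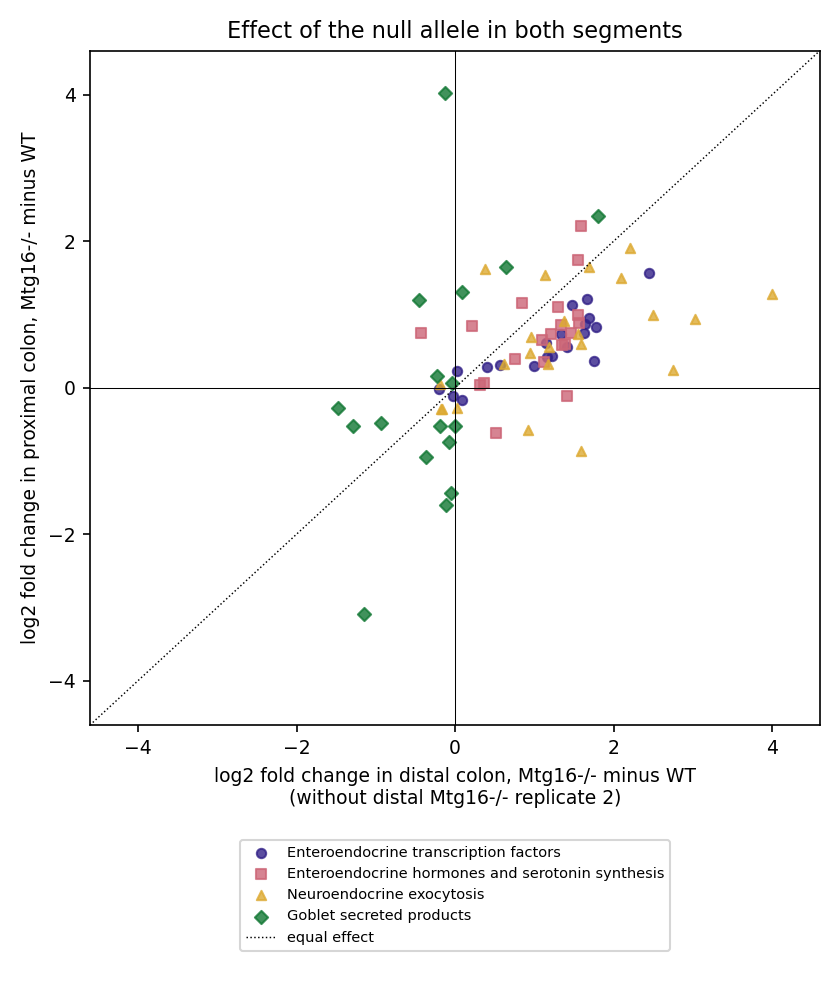
Log2 fold change of the null allele in proximal colon (y axis) against that in distal colon without the library labelled distal *Mtg16-/-* replicate 2 (x axis), 1 point per gene of the 3 enteroendocrine lists and the goblet product list, with a dotted line of equal effect. Most enteroendocrine points lie to the right of the line, as in 18 of 20 factors, and *Sval1* lies at the top near 0 on the x axis (4.03 against -0.12).

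A point mutant was compared with its own WT in proximal colon. T/T mice are homozygous for a *Mtg16* substitution that weakens binding to E proteins, and the 2 T/T and 2 WT libraries came from a separate colony on the same background and carry the number 5582. All 4 had *Xist* at 0 to 8.05 and Y-linked genes summing to 5850 to 8636, unlike the 4 libraries of the null colony, so allele, colony, label number and sex cannot be told apart. Here 32 genes passed limma (0.232%), and 33 genes had an effect that differed from that of the null allele (0.242% of 13622), 9 higher and 24 lower in the null. In 30 of the 33 the effects had opposite signs, 14 passed limma in T/T alone and 2, *Sval1* and *Reg4*, in the null alone. In 1 limma fit with an interaction term, 7 genes passed.

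*Reg4*, which fell in *Mtg16-/-*, had 11350 and 9428 in WT of the T/T colony and 18900 and 13700 in T/T, a difference between alleles of -2.24 ± 0.21 (limma, adjusted p = 0.0006, and 0.0214 with the interaction term). *Gal3st2c*, a galactose sulfotransferase of glycans, had 5625 and 5462 in WT and 2253 and 2670 in *Mtg16-/-*, but 2910 and 2823 in WT and 7912 and 8291 in T/T. The effects differed by -2.67 ± 0.15 (limma, adjusted p = 1.43e-05). In each of these genes the alleles moved apart in non-overlapping libraries.

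Other genes had the same sign in both mutants. *Sval1* had 347 and 622 in WT and 1560 and 1402 in T/T, and its effect in the null was greater by 2.36 ± 0.35 (limma, adjusted p = 0.0146, and 0.198 with the interaction term). *Dmpk* had 165 and 179 in WT and 522 and 687 in T/T, and passed limma there too (1.79 ± 0.18, adjusted p = 0.0392), as did *Tff3* (0.92 ± 0.09; limma, adjusted p = 0.0380). *Muc1* had 1101 and 1392 against 64.5 and 147, the larger change being in T/T (-3.65 ± 0.37; limma, adjusted p = 0.0380), and its difference from the null did not pass.

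The T/T effect had list medians of 0.77 for enteroendocrine factors, 0.57 for hormones, 0.61 for exocytosis genes, -0.59 for goblet products and -0.39 for mucin glycosylation, each with the sign seen in *Mtg16-/-* with all libraries. *Nxpe2*, at 1095 and 1575 in WT and 178 and 358 in T/T, and *Ceacam12*, at 1635 and 1084 against 624 and 346, were lower in both mutants, without passing limma in T/T. *Ces1c* stood at 1.01 and 5.58 in WT and 12.7 and 6.04 in T/T, at low counts in all 4 libraries.

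**Figure D5:**
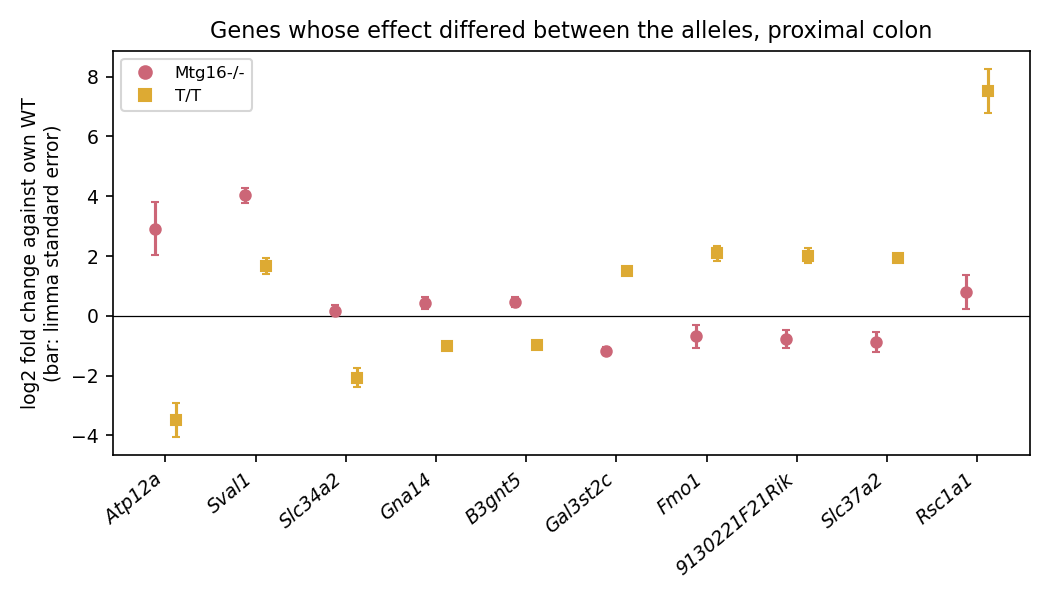
Log2 fold change against own WT of the 10 genes shown for the difference between *Mtg16-/-* (circles) and T/T (squares) in proximal colon, with bars of 1 limma standard error. The largest gaps are those of *Rsc1a1* (-6.72) and *Atp12a* (6.39), whose T/T or WT libraries stand near 0, and *Gal3st2c* differs by -2.67 with short bars.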

How the data were processed

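RNA from colon crypts was sequenced as bulk libraries. Per the labels and methods, the authors trimmed reads with fastp 0.20.0, quantified them with Salmon 1.3.0 against GENCODE M21 (GRCm38) and normalized them with DESeq2 1.26.0 in R 3.6.3. The deposited values are normalized counts (a signal: reads divided by the size factor of a library). Deposited columns of log2 fold changes and p-values hold the study's own comparisons and were not used.

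Whole reads were recovered by dividing each library by its smallest step. All values of at least 100 were then whole within 0.02, against 3.4% to 4.08% before. Genes with a mean of at least 10 over the 4 libraries entered limma 3.58.1 in R 4.3.3 as log2(normalized count + 1), with a variance trend and Benjamini-Hochberg adjustment at 0.05. DESeq2 1.42.0 and edgeR 4.0.16 were run on the recovered reads as alternatives. Fold changes are on the log2(value + 1) scale, which understates changes of low genes. Differences between contrasts were tested from both limma estimates and their standard errors. Depth was 43282428 to 54457713 reads per library. The scripts were tested on simulated data.

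Groups were taken from the labels. The members, the gene lists and the tests were chosen with earlier results of these data known, so list counts are descriptions, and enteroendocrine and goblet themes are not independent support. Named genes were *Cbfa2t3*, all limma calls, the 10 largest non-overlapping changes per direction with a mean of at least 100, up to 5 members per list with a mean of at least 50 and all members of the enteroendocrine factor, goblet and carboxylesterase lists where described, and up to 5 genes per direction in each difference. *Myrip*, *Cacna1h*, *Vipr2*, *Nxpe2* in the segment comparison, *Sst*, *Gcg*, *Ghrl*, *Chga*, *Chgb*, *Pcsk1*, *Sct*, *Runx1t1*, *Ret*, *S100b*, *Tcf4*, *Tcf12*, *Cd24a*, *Dclk1*, *Hes1*, *Lgr5* and genes named with their values in other tables were chosen after values were seen. Sequences are from RefSeq (GRCm38.p6). The alternatives were the pseudocount, the filter, quantile normalization, a fold limit, limma without trend, the count models, a replicate block, an interaction fit, distal libraries with the same label number, and leaving out each library. Added after the data were seen were a transcript length correction and fits without *Mtg16-/-* replicate 1 (DESeq2) or distal *Mtg16-/-* replicate 2, and a fit of the distal libraries with high *Xist*. Some list members are counted but not reported here by name.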

Additional observations from a re-analysis of the deposited data

Results flagged for a closer look

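The effect of the null allele differed between proximal and distal colon in 2 genes by the test of the difference with all libraries (limma). *Sval1* differed by 4.58 on the log2 scale (adjusted p = 0.000989), with both proximal *Mtg16-/-* libraries far above WT and the distal ones within or below the WT range. *Insrr* differed by -2.94 (limma, adjusted p = 0.0026), with all libraries of both segments higher in *Mtg16-/-*. Both calls held without the library labelled distal *Mtg16-/-* replicate 2, at 4.15 and -2.73. With the distal libraries numbered 4149 alone *Sval1* passed at 4.17, whereas *Insrr* at -2.80 did not (limma, adjusted p = 0.356). In 1 fit with an interaction term neither passed (limma, adjusted p = 0.0986 and 0.151).

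The null and T/T alleles differed in proximal colon in 33 genes (limma), or in 7 with an interaction term, of which *Gal3st2c* is the one among those shown, and the 10 shown are the 5 with the largest difference per direction. Colony, label number and sex differ with the allele throughout. Higher in the null relative to T/T were *Sval1* (2.36), *Atp12a*, a proton pump subunit (6.39), *Slc34a2*, a phosphate carrier (2.25), *Gna14*, a G protein subunit (1.44), and *B3gnt5*, a glycan synthase (1.43). Of these, *Atp12a* had 9.45 and 1.03 in WT and 30.2 and 37.9 in *Mtg16-/-*, and 51.3 and 134 in WT and 5.29 and 8.05 in T/T, so it rests on low values.

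Lower in the null relative to T/T were *Gal3st2c* (-2.67), *Fmo1*, a monooxygenase (-2.77), *9130221F21Rik* (-2.78), *Slc37a2*, a sugar phosphate exchanger (-2.81), and *Rsc1a1* (-6.72). *Slc37a2* had 11180 and 11290 in WT and 4053 and 9082 in *Mtg16-/-*, against 5981 and 6907 in WT and 25770 and 22930 in T/T. *Rsc1a1* had 112 and 368 in WT and 497 and 253 in *Mtg16-/-*, but 0 in both WT libraries of the T/T colony and 96.3 and 345 in T/T. It was also at 0 in 4 of the 8 distal libraries, of both genotypes, and it lies within another gene, so its value is uncertain.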

How the results depend on the processing

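The 9 genes called by limma numbered 8 to 11 with a pseudocount of 0.1, no filter, a mean of at least 50, quantile normalization, a fold limit of 1.5, edgeR, and with the trend with transcript length removed. The count was 0 in limma without the trend (838 at an unadjusted p under 0.05), 132 with DESeq2 and 70 with DESeq2 without *Mtg16-/-* replicate 1. Leaving out each library gave 6 to 22. No named gene changed sign where it was called with all libraries or in the alternative. Sign changes of genes called in neither were not counted. For the 2 genes that differed between segments, leaving out each library gave 2 to 7 (7 without *Mtg16-/-* replicate 2), removing distal *Mtg16-/-* replicate 2 gave 6, keeping the distal libraries with high *Xist* gave 7, and 1 fit with an interaction term gave 0 (324 at an unadjusted limma p under 0.05, and the count models were not run). For the 33 genes that differed between alleles, leaving out each library gave 22 to 47 and the interaction fit 7. The cause of these shifts was not tested, except that leaving out a library leaves fewer samples.

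With the replicate number as a block, the counts were 32 (11 higher, 21 lower), 5 and 146. Same-numbered libraries deviated together with a correlation of 0.147 over 2 pairs, and *Xist* and clock genes followed the number. The labels do not say that a number marks a shared litter, batch or day, so pairing was not established and the main fits have no block.

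With 2 libraries per genotype the limma estimate of the spread rests on few values. A covariate for sex was not run, since all 4 libraries were high in *Xist*.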

Other observations

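Gene sets that the study took from the literature were read in the same way as the lists. The enteroendocrine set had 142 tested, a median of 0.33, 106 higher, and 6 higher and 0 lower by DESeq2 (0.344% and 0.602% of all genes). Its median was 0.41 without *Mtg16-/-* replicate 1, where most of those calls were lost. The set for *Ascl2*-expressing de-differentiating cells had 183 genes tested, with a median of -0.32, 140 lower, 104 with both *Mtg16-/-* libraries below both WT libraries (18.1% of all genes), 1 gene higher and 1 lower by limma, and 28 lower and 3 higher by DESeq2 (0.602% and 0.344% of all genes). The median was -0.28 without *Mtg16-/-* replicate 1, where most of the lower calls were lost. The set for *mTert*-GFP positive cells had 57 tested, a median of 0.49, and 7 higher and 2 lower by DESeq2 (0.344% and 0.602% of all genes). Its median was 0.53 without *Mtg16-/-* replicate 1 and 0.23 without replicate 2. The set of epithelium regenerating after DSS colitis had 141 tested, a median of 0.29, and 1 higher and 3 lower by DESeq2 (0.344% and 0.602% of all genes), and its median was 0.07 without *Mtg16-/-* replicate 1.

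Some clock genes followed the replicate number more than the genotype. *Arntl*, the activator that pairs with CLOCK, had 1943 and 430 in WT replicates 1 and 2 and 2179 and 730 in *Mtg16-/-* replicates 1 and 2. *Nr1d1*, its repressor, had 1341 and 4967 against 728 and 5429. The median of the clock list over 17 genes had no stable sign, at -0.18 with all libraries, 0.45 without *Mtg16-/-* replicate 1, 0.30 without WT replicate 2 and -0.71 without WT replicate 1. The oxidative phosphorylation list had 16 of 22 lower with a median of -0.05 (0.04 without WT replicate 2 and -0.14 without WT replicate 1), and the immediate early genes 15 of 18 lower with a median of -0.13 (-0.06 without *Mtg16-/-* replicate 1), 0 called by limma and DESeq2.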
